A study of Mus musculus and Homo sapiens with 23 samples.

Results

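The genes described here encode inhibitory receptors of myeloid cells, together with a ligand of such a receptor and the phosphatase that acts behind them. They were chosen by name, as the rows of the BV2 RNA tables whose RefSeq transcript ID maps to Cd200r1, Sirpa, Pirb, Siglece, Cd33, Cd300a, Cd300lf, Cd47, Lair1 or Ptpn6, with rows of the same symbol summed. All 10 genes were found, in 15 of 28246 transcript rows, and they stand among 21598 genes measured and 10035 that reached 1 FPKM in at least 1 of the libraries. The RNA came from BV2, a cell line derived from mouse microglia by immortalisation (microglia are the macrophages that reside in the brain). The groups were 1 library of BV2 cells kept for 3 h with LPS (lipopolysaccharide from the envelope of Gram-negative bacteria), and 1 library of unstimulated BV2 cells. Neither group carries a further treatment in its labels, and a single line in culture has no neurons, astrocytes or other cells beside it. The series holds 23 samples, and the other 21, which are chromatin immunoprecipitation and input samples of BV2 cells, mouse forebrain, mouse embryonic stem cells and a human lymphoblastoid line, were not analysed here.

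Inhibitory receptors restrain macrophages and microglia. Most carry, in the part of the protein inside the cell, short tyrosine motifs called ITIMs (immunoreceptor tyrosine-based inhibitory motifs). When a ligand on a neighbouring cell or in the matrix is bound, kinases of the Src family phosphorylate these tyrosines, and the phosphatases SHP-1 (Ptpn6) and SHP-2 (Ptpn11) or the lipid phosphatase SHIP-1 (Inpp5d) dock there and dampen signals from activating receptors, which work through ITAM adaptors such as Tyrobp. In brain, neurons display the ligands Cd200 and Cd47 to microglia.

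FPKM is a fragment number scaled to transcript length and library size. The range after each FPKM is the 95% interval deposited by the authors for that single library, combined over rows where a gene has several, and it covers the counting and assignment of fragments but not the spread between cultures. There were no replicates, so each difference is one between 2 libraries and has no p-value. A gene was called higher or lower where the change (LPS minus unstimulated, in log2(FPKM + 1)) was at least 1 in size, which is a fold of 2 on that scale. The fragments implied by the deposited intervals summed to 16910000 in the LPS library and 13790000 in the unstimulated library, to the nearest 10000. The 6 genes used to check the response to LPS (Tnf, Il1b, Il6, Cxcl10, Nfkbia and Nos2) were all higher, by a median change of 7.04. Of 12 myeloid and microglial markers measured, 10 reached 1 FPKM, and of the other 2 Cx3cr1 was below 1 FPKM and Sall1 was listed at 0 in both libraries, while Cd68 matched no row. Among P2ry12 and Tmem119, which set microglia apart from other macrophages, the highest value was 2.16 FPKM (Tmem119, unstimulated). None of the 36 marker entries for lymphocytes, neurons, glia other than microglia, and stroma reached 1 FPKM in either library.

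After 3 h of LPS the inhibitory receptor genes moved in both directions. Pirb and Cd47 were higher, Cd200r1, Cd300lf, Lair1 and Ptpn6 were lower, Sirpa, Cd33 and Cd300a stayed within the size rule, and Siglece was near 0 in both libraries. Of the 9 genes counted (1 FPKM or more in either library), 2 were higher and 4 were lower, where 8.54% of all 10035 counted genes were higher and 12.4% were lower. The deposited intervals of the 2 libraries were separate for these 6 genes and overlapped for Sirpa, Cd33 and Cd300a, and over all counted genes they were separate for 73.6%. For Sirpa this holds for the rows that carry its name. A row with no name, described below, holds most of the FPKM at its locus (57.5 with LPS and 90.2 without), with separate intervals. The median change of the 9 genes was -0.32, close to the median of -0.24 over all counted genes. In RNA from bulk cells, fewer cells expressing a gene and less RNA per cell cannot be told apart.

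**Figure D1:**
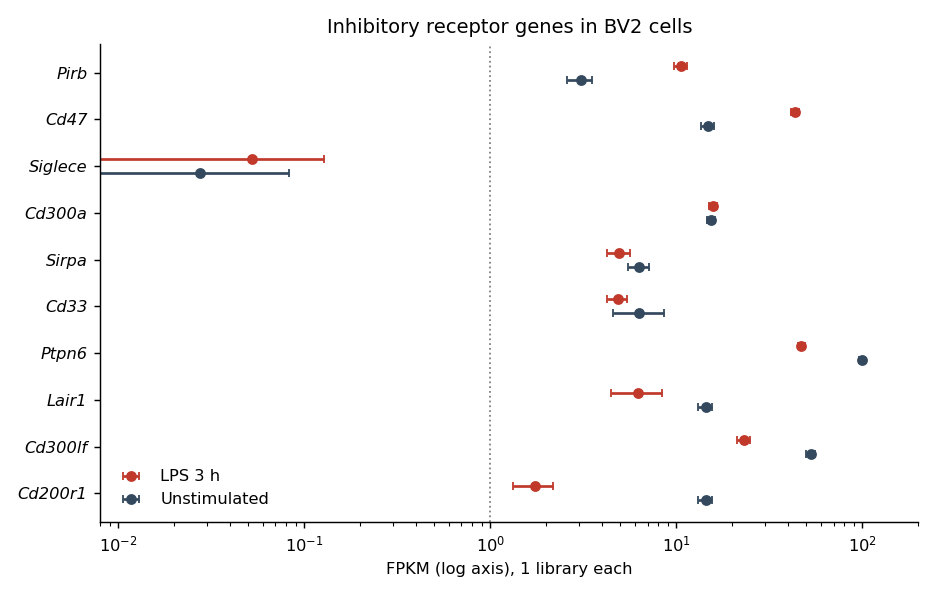
FPKM of the 10 genes on a log axis in the LPS library (red, upper point of each pair) and the unstimulated library (dark, lower point), 1 library each, with the deposited 95% intervals as bars (lower ends at 0 are cut at the axis) and a dotted line at 1 FPKM. Genes are ordered by change, from Pirb (1.51) at the top to Cd200r1 (-2.48) at the bottom. Red lies to the right of dark for Pirb and Cd47 and well to its left for Ptpn6, Lair1, Cd300lf and Cd200r1. Values are from named rows only, which leaves out the row with no name that holds most of the FPKM at the Sirpa locus.

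The DNA around the start sites of genes called higher or lower is shown so that the promoters of genes that went opposite ways can be set side by side. RefSeq promoter windows of assembly GRCm38.p6 (250 bases before to 50 after the start) were found for 8 of the 10 genes, and those of the 5 called genes among them are printed 5′ to 3′ on the strand of the gene. Cd200r1, the member with the strongest fall, and Sirpa had no window, so the lower genes shown are Cd300lf, Lair1 and Ptpn6. Their coordinates belong to GRCm38.p6, whereas the gene loci given with the FPKM values are the deposited mm9 ones. Capitals mark matches, on either strand, to GAGGAA, the core of the sequence bound by the myeloid factor PU.1 and other ETS proteins, to GGANTTT, the inner part of many NF-kB sites, or to the TATA box sequence TATAAA.
Pirb, chr7:3720333-3720632, minus strand: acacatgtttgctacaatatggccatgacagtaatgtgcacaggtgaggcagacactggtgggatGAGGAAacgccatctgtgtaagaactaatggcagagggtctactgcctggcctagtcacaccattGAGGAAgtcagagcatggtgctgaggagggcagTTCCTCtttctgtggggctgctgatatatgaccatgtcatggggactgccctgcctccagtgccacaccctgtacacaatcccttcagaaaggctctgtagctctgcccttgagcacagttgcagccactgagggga
Cd47, chr16:49855404-49855703, plus strand: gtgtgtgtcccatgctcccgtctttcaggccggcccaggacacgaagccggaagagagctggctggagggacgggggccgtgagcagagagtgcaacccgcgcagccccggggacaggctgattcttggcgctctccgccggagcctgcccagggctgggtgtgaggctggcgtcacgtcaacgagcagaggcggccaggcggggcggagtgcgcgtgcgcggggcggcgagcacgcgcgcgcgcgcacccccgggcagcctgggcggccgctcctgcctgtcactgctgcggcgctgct
Cd300lf, chr11:115133943-115134242, minus strand: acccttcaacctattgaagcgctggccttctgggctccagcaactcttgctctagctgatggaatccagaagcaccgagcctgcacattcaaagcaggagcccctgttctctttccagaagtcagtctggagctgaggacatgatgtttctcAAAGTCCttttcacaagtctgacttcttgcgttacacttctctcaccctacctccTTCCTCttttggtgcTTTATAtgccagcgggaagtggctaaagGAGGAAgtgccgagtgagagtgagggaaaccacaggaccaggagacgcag
Lair1, chr7:4063155-4063454, minus strand: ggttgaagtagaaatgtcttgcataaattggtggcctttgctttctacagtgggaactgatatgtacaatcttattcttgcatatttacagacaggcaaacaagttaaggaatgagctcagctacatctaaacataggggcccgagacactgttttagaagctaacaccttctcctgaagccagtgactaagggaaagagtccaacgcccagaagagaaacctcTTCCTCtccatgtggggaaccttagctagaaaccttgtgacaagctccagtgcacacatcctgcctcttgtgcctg
Ptpn6, chr6:124738660-124738959, minus strand: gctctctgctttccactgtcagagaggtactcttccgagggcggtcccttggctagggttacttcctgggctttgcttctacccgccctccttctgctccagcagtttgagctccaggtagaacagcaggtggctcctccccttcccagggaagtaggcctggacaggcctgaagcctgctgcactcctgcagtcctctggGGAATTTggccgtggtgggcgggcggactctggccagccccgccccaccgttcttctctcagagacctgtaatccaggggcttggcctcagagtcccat

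GAGGAA occurred in the windows of all 6 receptor genes in the promoter table, with 3 matches in Pirb and in Siglece, 2 in Cd300lf and 1 each in Cd300a, Cd33 and Lair1. It did not occur in the windows of Cd47 or Ptpn6, and 28.3% of all 32851 windows held it. For Ptpn6, the row NM_013545 (98.4% of the gene with LPS and 99.6% without) and the row NM_001077705 start at different bases. Which of these starts the Ptpn6 window covers was not tested, so its matches may not belong to the start of the abundant row. In Cd300lf a match starts at the first transcribed base. TATAAA was found in Cd300lf alone of the 8, on the opposite strand, and in 13.6% of all windows. GGANTTT was found in 1 place each in Cd300a, Cd300lf and Ptpn6, and in 15% of all windows, and the windows of Pirb and Cd47 held no match. An interferon response-type sequence (GAAACTG, 5.95% of all windows) and an AP-1-type sequence (TGANTCA, 7.81%) were searched on both strands as well and had no match in any of the 8, which says only that these letters are not there. The sequences searched can share bases with each other. The window of Cd47 held 35 CpG pairs and was 74.0% G and C, whereas those of Pirb, Cd300a and Siglece held 1 CpG each, and the median over all windows was 7.

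Cd200r1 encodes the receptor for Cd200 and is the member with the strongest fall. It signals without an ITIM, through the adaptor Dok2 and the Ras inhibitor Rasa1. Cd200r1 (mm9 chromosome 16, 44765849 to 44795090) had 1.75 FPKM (1.32 to 2.17) in the LPS library and 14.4 FPKM (13.1 to 15.6) in the unstimulated library. The LPS value is the low one and the intervals are far apart. The change was -2.48, and without the pseudocount the gene fell 8.22-fold (6.38 to 10.6), resting on 68 and 532 implied fragments. Only 0.399% of all counted genes had a more negative change. Cd200r1 was among the calls that held under every alternative setting tried.

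Of the relatives of Cd200r1 that lie beside it on chromosome 16, Cd200r4 and Cd200r2 were lower as well. They encode activating relatives of the inhibitory receptor. Cd200r4 had 24.0 FPKM (22.4 to 25.7) with LPS and 57.8 FPKM (55.2 to 60.5) without, a 2.41-fold fall (2.22 to 2.61). Cd200r2 had 1.15 FPKM with LPS and 3.50 FPKM without. After median scaling the changes of Cd200r4 and Cd200r2 were -0.95 and -0.91 and their calls were lost, and that of Cd200r2 was also lost after quantile normalisation and with a pseudocount of 5. Cd200r3, the next gene along, was at 0 in the LPS library and 0.0423 FPKM in the unstimulated library and was not counted. Cd200r4 was thus the most abundant transcript of this cluster in both libraries. The genes of the cluster are similar in sequence, so fragments may be assigned to the wrong copy, and the share this takes was not tested. Dok2, the adaptor of Cd200r1, had 7.08 FPKM with LPS and 23.4 FPKM without, and Rasa1 had 3.81 and 12.6 FPKM, so both were lower along with the receptor, 3.31-fold each. Cd200, the ligand, was listed at 0 in both libraries.

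Cd300lf, a receptor for membrane lipids that carries ITIMs, was the most abundant of the 8 receptor genes in both libraries by the rows that carry its name. It lies on mm9 chromosome 11, 114977528 to 114995306, and had 23.2 FPKM (21.3 to 25.0) in the LPS library against 52.9 FPKM (50.0 to 55.8) in the unstimulated library. The intervals are separate and the LPS value is the lower. The fall was 2.28-fold (2.08 to 2.51), a change of -1.16. The gene has 2 transcript rows, and both were lower with LPS. The row NM_145634 had 6.24 FPKM (5.19 to 7.30) with LPS and 19.97 FPKM (18.1 to 21.8) without, a 3.20-fold fall (2.65 to 3.86). The row NM_001169153 had 16.9 FPKM (15.4 to 18.5) with LPS and 32.9 FPKM (30.7 to 35.1) without, a 1.95-fold fall (1.74 to 2.18). The fall intervals of the transcripts are separate, and the share of NM_001169153 in the gene was 73.0% with LPS and 62.2% without. With NM_001169153 alone or after median scaling, the change of Cd300lf was -0.92 or -0.88 and short of the size rule.

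Cd300a, a receptor for phosphatidylserine and phosphatidylethanolamine with ITIMs, lies in the same cluster (114751355 to 114765965) and stayed within the size rule. It had 15.7 FPKM (14.9 to 16.5) with LPS and 15.4 FPKM (14.6 to 16.2) without, with overlapping intervals. The ratio of LPS to unstimulated was 1.02 (0.953 to 1.10), on 1608 and 1498 implied fragments. The change of 0.03 turns to -0.21 after rescaling to TPM. Cd300lf stood 1.47 times (1.34 to 1.62) as high as Cd300a in the LPS library and 3.44 times (3.20 to 3.71) in the unstimulated library. The activating relatives Cd300lb, Cd300ld and Cd300c2 all had the lower value with LPS, and 1 of them passed the size rule. Cd300lb, which signals through Tyrobp, had 7.53 FPKM (6.83 to 8.23) with LPS and 42.0 FPKM (40.3 to 43.7) without, a 5.58-fold fall (5.05 to 6.16) that exceeds that of Cd300lf. Cd300ld (7.34 with LPS and 12.1 FPKM without) and Cd300c2 (4.59 and 6.67 FPKM) stayed within the size rule.

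Pirb, the paired immunoglobulin-like receptor B, which binds MHC class I and carries ITIMs, was the receptor that rose. Pirb (mm9 chromosome 7, 3664107 to 3671984) had 10.6 FPKM (9.76 to 11.5) in the LPS library and 3.07 FPKM (2.60 to 3.54) in the unstimulated library. The LPS library is the high one and the intervals do not overlap. The rise was 3.46-fold (2.92 to 4.10), a change of 1.51 that was 0.95 with a pseudocount of 5. Its activating relative Pira2 was at 0.459 FPKM with LPS and 0.421 FPKM without. The Pira genes are near-identical to Pirb over much of their length, so the Pirb value may include fragments of them, which was not tested. Other Pira symbols matched no row. Rows with no name do lie in the region beside Pirb and Pira2. Of these, NM_011087 had 0.167 FPKM with LPS and 0.096 FPKM without, and NM_011094 and NM_011088 were near 0 in both libraries. Of the genes for the MHC class I ligands of Pirb, the heavy chain genes H2-K1 and H2-D1 were higher too. H2-K1 had 1178 FPKM with LPS and 487 FPKM without, and its change was 0.95 after quantile normalisation. H2-D1 had 1151 FPKM with LPS and 455 FPKM without. B2m, the light chain, stayed within the size rule with a change of 0.86, at 12792 FPKM with LPS and 7050 FPKM without. Angptl2, a secreted protein that binds Pirb, had 4.00 FPKM with LPS and 24.0 FPKM without, a 5.99-fold fall (5.30 to 6.78).

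Lair1, which binds collagens and carries ITIMs, lies in the same region of chromosome 7 as Pirb and went the opposite way. Lair1 (mm9 chromosome 7, 3958675 to 4014806) had 6.21 FPKM (4.46 to 8.33) in the LPS library and 14.4 FPKM (13.1 to 15.6) in the unstimulated library. The intervals are separate, although that of the LPS library is wide. The fall was 2.31-fold (1.64 to 3.26), a change of -1.09. Of its transcript rows, NM_001113474 had 5.13 FPKM (3.76 to 6.50) with LPS and 10.5 FPKM (9.65 to 11.3) without. The row NM_178611 had 1.09 FPKM (0 to 2.69) with LPS and 3.86 FPKM (2.99 to 4.73) without. Its intervals imply 2 and 79 fragments, which is out of proportion to the FPKM values, so these cannot be read as fragment counts. The call of Lair1 was lost with a pseudocount of 5, after median scaling, after quantile normalisation and with NM_001113474 alone, at changes between -0.97 and -0.79. The collagen ligands Col1a1, Col1a2 and Col3a1 were listed at 0 in both libraries. The other collagens of the list were below 1 FPKM in both, Col4a1 at 0.0676 FPKM with LPS and 0.327 FPKM without, Col4a2 at 0.320 and 0.0146 FPKM, and Col17a1 at 0 and 0.00871 FPKM. C1qa, a chain of complement C1q, which binds LAIR1 in human, had 0.740 FPKM with LPS and 4.46 FPKM without, on 15 and 86 implied fragments, and its call was lost with a pseudocount of 5. The more abundant chains stayed within the size rule, C1qb at 182 FPKM with LPS and 250.3 FPKM without, and C1qc at 29.4 and 52.4 FPKM.

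Siglece and Cd33, receptors for sialic acid that lie near each other on mm9 chromosome 7, were not called. Cd33 (50782826 to 50788541) had 4.84 FPKM (4.23 to 5.45) with LPS and 6.31 FPKM (4.54 to 8.56) without, with overlapping intervals and a change of -0.32. Its row NM_021293 had 4.84 FPKM (4.23 to 5.45) with LPS and 5.46 FPKM (3.91 to 7.01) without, which was 86.6% of the gene in the unstimulated library. The ratio for the gene was 0.767 (0.529 to 1.11). Siglece (50906440 to 50915531), which carries ITIMs, had 0.0527 FPKM (0 to 0.127) with LPS and 0.0277 FPKM (0 to 0.0830) without, on 2 and 1 implied fragments. It was not counted, and no difference is detectable at this depth. Of the other sialic acid receptors, Siglec1 had 3.83 FPKM with LPS and 2.33 FPKM without, Siglech was at 0 and 0.0208 FPKM, and Siglecf was at 0 and 0.102 FPKM.

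Sirpa, the ITIM receptor for Cd47, is the member whose level depends most on how rows are named. The rows named Sirpa (mm9 chromosome 2, 129418931 to 129457964) summed to 4.92 FPKM (4.21 to 5.63) with LPS and 6.32 FPKM (5.50 to 7.14) without. The intervals overlap slightly and the change was -0.31. The ratio of LPS to unstimulated for these rows was 0.778 (0.644 to 0.941). A further row, NM_001177646, spans the same locus (129418575 to 129457964), starting 356 bases earlier and ending at the same base, and its ID matched no symbol in the name table. That row alone had 57.5 FPKM (55.8 to 59.3) with LPS and 90.2 FPKM (88.0 to 92.4) without, with intervals far apart. With it added, the locus came to 62.5 FPKM (60.6 to 64.3) with LPS and 96.5 FPKM (94.2 to 98.8) without, a 1.54-fold fall (1.49 to 1.60) and a change of -0.62, still within the size rule. The unnamed row then held 92.1% of the sum with LPS and 93.4% without. The rows named Sirpa therefore hold a small part of the fragments assigned to this locus. Sirpb1b and Sirpb1c, relatives of Sirpa that lack ITIMs, were at 0.470 and 0.337 FPKM with LPS and at 1.13 and 1.28 FPKM without.

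Cd47 encodes the ligand of Sirpa, a signal displayed by a cell against being engulfed, and it rose. Cd47 (mm9 chromosome 16, 49855767 to 49911796) had 43.6 FPKM (41.5 to 45.7) in the LPS library and 14.7 FPKM (13.5 to 16.0) in the unstimulated library. The LPS value is the high one by a wide margin. The rise was 2.96-fold (2.69 to 3.26), on 1722 and 554 implied fragments, and the call held under every alternative setting tried, with changes between 1.29 and 1.79. Set against the rows named Sirpa, Cd47 stood 8.87 times as high in the LPS library and 2.33 times in the unstimulated library. With the unnamed row added to Sirpa it stood 0.699 and 0.153 times as high, so which of the pair is the more abundant depends on that row, while the ratio is higher in the LPS library either way. Thbs1, another ligand of Cd47, was at 0.627 FPKM with LPS and 0.642 FPKM without.

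Ptpn6, which encodes the tyrosine phosphatase SHP-1 recruited by ITIMs, was the most abundant member in both libraries by named rows and fell. Ptpn6 (mm9 chromosome 6, 124670736 to 124688727) had 46.9 FPKM (44.8 to 48.9) in the LPS library and 99.3 FPKM (96.2 to 102) in the unstimulated library. The intervals are far apart and the LPS value is the lower. The fall was 2.12-fold (2.01 to 2.23), a change of -1.07, on 2094 and 4313 implied fragments. It is close to the size rule, and after median scaling the change was -0.78. The row NM_013545 held 98.4% of the gene with LPS and 99.6% without. The other row, NM_001077705, which begins further upstream, had 0.760 FPKM (0.404 to 1.12) with LPS and 0.430 FPKM (0.154 to 0.706) without, with overlapping intervals. By rank among the 10035 counted genes, Ptpn6 stood at position 1653 with LPS and at position 807 without.

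**Figure D2:**
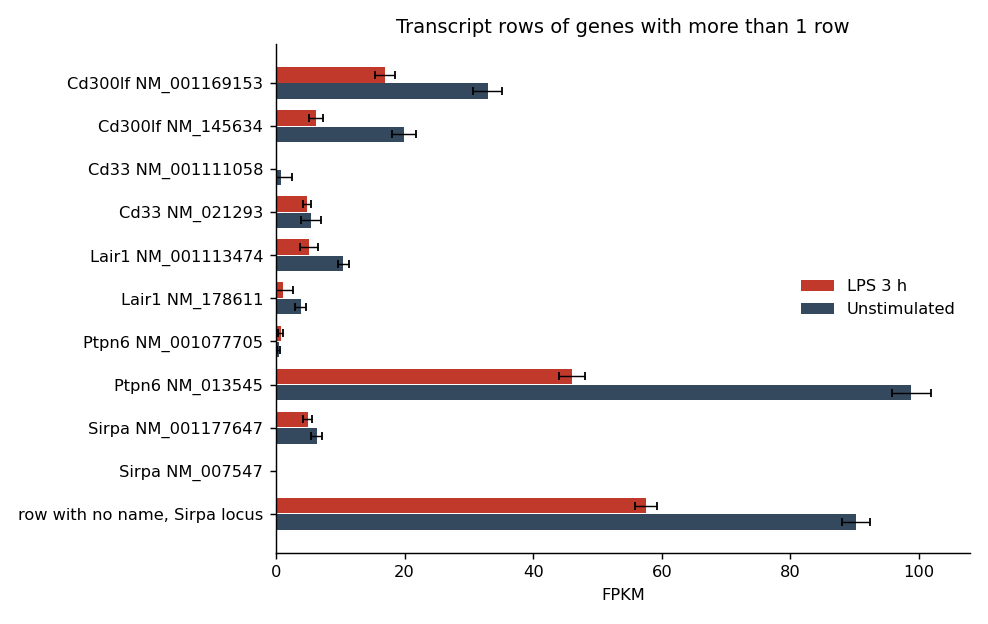
FPKM of each transcript row of the member genes with more than 1 row, and of the row with no name at the Sirpa locus, in the LPS library (red) and the unstimulated library (dark), 1 library each, with the deposited 95% intervals as error bars. For Cd300lf and Lair1 both rows are lower with LPS, Ptpn6 rests on a single row, and the unnamed row at the Sirpa locus (57.5 with LPS and 90.2 without) far exceeds the rows named Sirpa.

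By named rows, the order of the levels differed between the libraries. With LPS it ran Ptpn6, Cd47, Cd300lf, Cd300a, Pirb, Lair1, Sirpa, Cd33, Cd200r1 and Siglece, and the neighbours with overlapping intervals were Ptpn6 with Cd47, Lair1 with Sirpa, and Sirpa with Cd33. Without LPS it ran Ptpn6, Cd300lf, Cd300a, Cd47, Cd200r1, Lair1, Sirpa, Cd33, Pirb and Siglece. There the intervals of Cd300a, Cd47, Cd200r1 and Lair1 overlapped from each to the next, as did those of Sirpa and Cd33. Pirb moved up past Lair1, Sirpa, Cd33 and Cd200r1 in the LPS library, and Cd200r1 moved to the place before Siglece. The place of Sirpa depends on the unnamed row at its locus. With that row added, Sirpa came to 62.5 FPKM (60.6 to 64.3) with LPS and would stand first, above Ptpn6 at 46.9 FPKM. Without LPS it came to 96.5 FPKM (94.2 to 98.8), with an interval that overlaps that of Ptpn6 at 99.3 FPKM (96.2 to 102).

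Summed over the 8 receptor genes (all but Cd47 and Ptpn6), the named rows came to 67.2 FPKM (64.2 to 70.5) with LPS and 113 FPKM (109 to 117) without. The sum is lower with LPS and the intervals are separate. Cd300lf made up 34.4% of it with LPS and 46.9% without, Cd200r1 2.60% and 12.7%, and Lair1 9.24% and 12.7%. Pirb made up 15.8% with LPS and 2.72% without, and Cd300a 23.4% and 13.6%. With the unnamed row at the Sirpa locus included, the sum was 124.8 FPKM with LPS and 203 FPKM without, and Sirpa made up 50.1% and 47.6% of it.

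**Figure D3:**
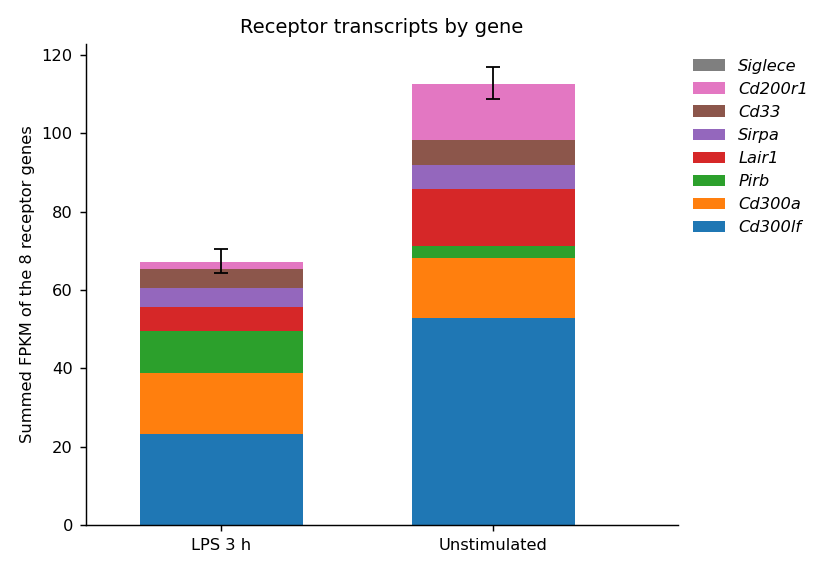
Summed FPKM of the 8 receptor genes, stacked by gene, in the LPS library (left) and the unstimulated library (right), 1 library each, from named rows only, with the combined 95% interval of the sum as error bar. The bar with LPS (67.2) is lower than the bar without (113), the parts of Cd300lf and Cd200r1 are smaller in it, and the part of Pirb is larger.

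Around the members, the related genes also went both ways. The list of relatives also holds receptors outside the member families (Cd200r, Sirp, Pir, Siglec and Cd300), such as Pilrb, Trem and Clec5a genes. Of its 14 counted genes, 3 were higher and 3 lower (21.4% each, where 8.54% of all counted genes were higher and 12.4% lower), with a median change of -0.45. Those that rose were Pilrb1, Pilrb2 and Trem1, none of which belongs to a member family. Those that fell were Cd300lb, Cd200r4 and Cd200r2, described above, which all do. Pilrb1, an activating receptor paired with the inhibitory Pilra, had 12.5 FPKM (10.9 to 14.2) with LPS and 0.335 FPKM (0.0614 to 0.608) without, where the value rests on 6 implied fragments. Pilrb2 had 5.41 FPKM with LPS and 0.312 FPKM without, and the near-identical Pilrb genes can take fragments from each other. Trem1, an amplifier of inflammatory signals, had 2.17 FPKM with LPS and 0.423 FPKM without. A further 8 measured genes of this list were below 1 FPKM in both libraries and 8 of its symbols matched no row.

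Of 12 counted genes in a list of other inhibitory receptors, most of them with ITIMs, 2 were higher and 2 lower (16.7% each, beside 8.54% and 12.4% of all counted genes), with a median change of 0.28. Lilrb4a, an ITIM receptor of myeloid cells, had 1423 FPKM with LPS and 396 FPKM without, a 3.60-fold rise (3.52 to 3.68), and in both libraries it exceeded every one of the 10 members. Pdcd1, which encodes PD-1, had 14.7 FPKM (13.5 to 15.9) with LPS and 1.03 FPKM (0.699 to 1.36) without. Vsir, which encodes the checkpoint receptor VISTA, had 1.97 FPKM (1.59 to 2.35) with LPS and 13.6 FPKM (12.8 to 14.4) without, and Treml1 had 0.171 and 2.46 FPKM. Fcgr2b, the inhibitory Fc receptor, stayed within the size rule, with 89.2 FPKM (85.5 to 92.9) with LPS and 76.8 FPKM without, where the interval was wide (24.9 to 146).

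Of 21 counted phosphatases, adaptors and kinases that act at ITIMs, 4 were higher (19.05%, beside 8.54% of all counted genes) and 3 lower (14.3%, close to the 12.4% of all counted genes), with a median change of 0.12. Those that fell were Inpp5d, Dok2 and Rasa1. Inpp5d, which encodes the lipid phosphatase SHIP-1, had 1.58 FPKM (1.26 to 1.90) with LPS and 9.05 FPKM (8.30 to 9.80) without, a 5.72-fold fall (4.62 to 7.09). Ptpn11, which encodes SHP-2, had 5.97 FPKM (5.42 to 6.52) with LPS and 5.41 FPKM (4.90 to 5.91) without, with overlapping intervals. Of the phosphatases named above, SHP-1 and SHIP-1 were thus lower by the size rule and SHP-2 was within it. Among those that rose was Src, a kinase of the family that phosphorylates ITIMs and ITAMs alike, with 35.6 FPKM (34.3 to 36.9) with LPS and 1.70 FPKM (1.41 to 1.99) without. Ptpn22, a phosphatase that dampens Src kinases, had 12.4 FPKM with LPS and 1.57 FPKM without.

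On the activating side, 2 of 14 counted ITAM adaptors and kinases were higher (14.3%, beside 8.54% of all counted genes) and 1 was lower (7.14%, beside 12.4%), with a median change of -0.05. Syk, the kinase that docks on ITAMs, had 38.0 FPKM (36.6 to 39.5) with LPS and 9.60 FPKM (8.81 to 10.4) without, a 3.96-fold rise (3.62 to 4.33). The adaptor Lcp2 had 104 FPKM with LPS and 14.7 FPKM without, and Card9, an adaptor downstream of Syk, had 3.76 and 19.7 FPKM. The ITAM adaptors themselves were abundant and within the rule, Tyrobp at 3064 FPKM with LPS and 4128 FPKM without. Among 8 counted ligand genes 2 were higher (H2-K1 and H2-D1) and 2 lower (Angptl2 and C1qa), 25% each beside 8.54% and 12.4% of all counted genes, with a median of 0.20, and 12 ligand genes were below 1 FPKM in both libraries.

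**Figure D4:**
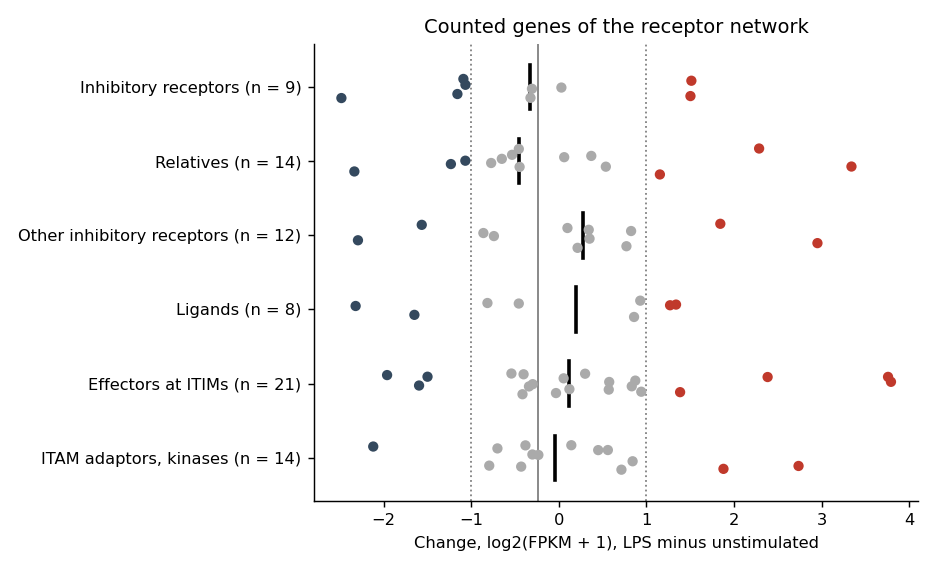
Change in log2(FPKM + 1), LPS minus unstimulated, of each counted gene in the inhibitory receptor set and 5 related lists, 1 library per group. Red points are higher and dark points lower by the size rule (dotted lines at 1 and -1), black bars are list medians and the grey line is the median of all counted genes (-0.24). Every list has points beyond both dotted lines.

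Scaling moves the members that sit near the rule. Rescaling to TPM moved the median change of all counted genes by -0.24, quantile normalisation by 0.11 and median scaling by 0.24. The share of higher genes among all called was 40.7% as reported, 24.7% after TPM, 53% after quantile normalisation and 59.1% after median scaling. Relative to those shifts, Cd200r1 stayed lower and Cd47 stayed higher under each scaling, as did Pirb. After median scaling Cd200r1 was the only member still called lower.

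**Figure D5:**
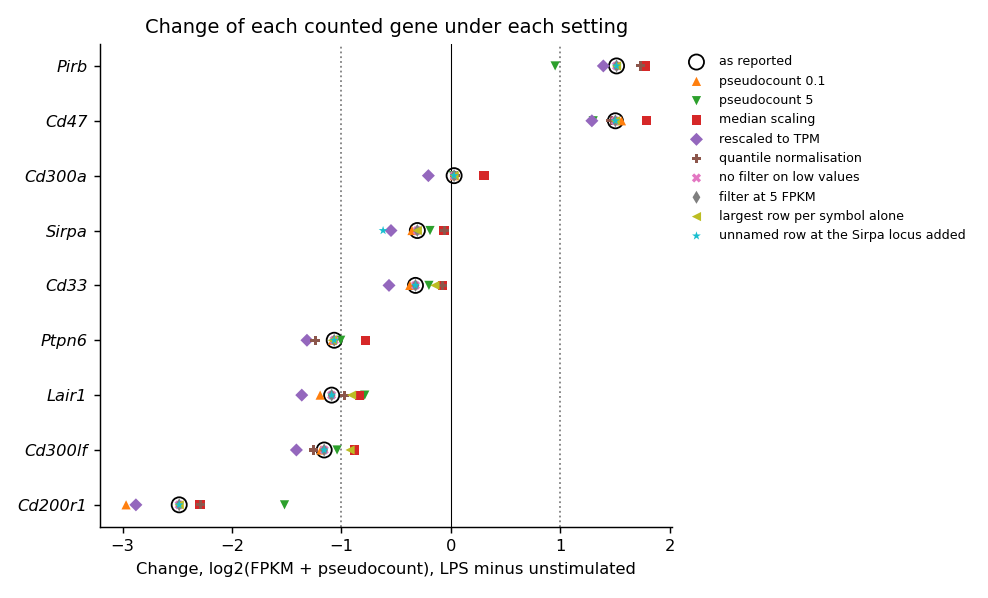
Change of each of the 9 counted genes (log2 scale, LPS minus unstimulated) as reported (open circles) and under 9 other settings (coloured marks), with dotted lines at the size rule. Cd200r1 and Cd47 lie beyond the lines under all settings, whereas marks of Cd300lf, Lair1, Ptpn6 and Pirb lie on both sides of a line.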

How the data were processed

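RNA of BV2 cells was sequenced as 1 LPS library and 1 unstimulated library. Per the labels' protocols, Trizol was used for total RNA, the library kit was directional and reads had 76 bases. Per the submitters' processing notes and the file headers, the authors computed FPKM values with a 95% interval in Cufflinks on genome build mm9, with no aligner or version named in those sources. Rows were named by transcript ID with RefSeq's gene list for GRCm38.p6, which matched 27560 of 28246 rows (97.6%). Rows with no match were kept under their ID. Rows with a failed or low-data status in a library (391) and rows of small RNA genes (712) were left out, and all 15 rows of the members were kept. Rows of a symbol were summed, with interval half-widths combined in quadrature. Deposited starts were read as 0-based and are written 1-based. Whether strand was used in counting is not given.

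Implied fragments are the square of 2 × FPKM divided by the upper half-width. They came within 0.05 of a whole number for 68.9% of rows with 0.5 to 50 of them in the LPS library and 67.5% in the unstimulated library. Where a gene has several rows they also reflect the assignment of fragments between rows. Over rows with such whole numbers, the LPS library's FPKM divisor stood at 1.05 times the unstimulated one's. Ratios have a 95% interval from both deposited intervals, on the log scale, and none is given at 3 or fewer implied fragments. The pseudocount of 1 understates the change of low genes. The members and lists were chosen with earlier results of these data known. All members are described, and of each related list up to 3 genes with the largest rise and up to 3 with the largest fall past the size rule, and relatives of the member families. A gene of the effector list that this rule names is not reported here. Ptpn11, Tyrobp, Fcgr2b, Thbs1, Cd200, B2m, C1qb, C1qc and the collagens are named outside this rule and were chosen after their values were seen. Motifs were searched after the calls were known. Longer NF-kB-type and interferon response-type sequences were searched first, had no match in the members' windows, and were replaced by the shorter ones after that was seen. The computation was tested on simulated libraries. It used Python 3.11.15, pandas 2.3.3, numpy 2.4.6 and matplotlib 3.10.9.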

Additional observations from a re-analysis of the deposited data

How the results depend on the processing

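No paired analysis was possible because each group holds 1 library. The number of members called higher (2) was 1 with a pseudocount of 5, where Pirb was at 0.95, and otherwise 2. The number called lower (4) was 1 after median scaling and 2 with the largest row of each symbol alone. It was 3 with a pseudocount of 5 and 3 after quantile normalisation. The median change of the members ranged from -0.62, with the unnamed row added to Sirpa (an alternative chosen after seeing the data), to -0.07 after quantile normalisation. After median scaling the lists changed to 7 effector genes higher, 4 ligand genes and 4 other inhibitory receptors higher, and 1 relative lower. After rescaling to TPM, 2 ITAM genes and 4 other inhibitory receptors were lower, and after quantile normalisation 1 ligand gene was higher. With a pseudocount of 5, 1 ligand gene and 1 other inhibitory receptor gene were lower and 1 relative was higher, and with a pseudocount of 0.1, 5 relatives were lower. With a filter at 5 FPKM, 1 ligand gene and 1 other inhibitory receptor were lower. Over all counted genes, 982 were higher and 2062 lower with a pseudocount of 0.1, 576 and 354 when it was 5, 1142 and 789 after median scaling, 750 and 2281 after TPM, 949 and 842 after quantile normalisation, and 857 and 1249 as reported. Of the single genes, 0 changed direction among those called, Lair1 lost its call under 4 of 9 alternatives, Cd300lf under 2, and Ptpn6 and Pirb under 1 each. Of the related genes, C1qa, Cd200r2, Pilrb2, Rasa1, Trem1 and Treml1 lost their calls with a pseudocount of 5. The cause of these differences was not tested. Depth limits Siglece (2 and 1 implied fragments). The intervals of the minor rows of Lair1 (with LPS) and Cd33 reach down to 0. Whether depth or the assignment of fragments between rows sets this was not tested.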

Other observations

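The genes next to the members at the deposited mm9 loci were looked at after the values were seen. Of 74 other entries within 4 entries to either side of a member, 32 were counted. Of those counted, 1 was higher and 6 were lower, where 8.54% and 12.4% of all counted genes were. The entries are genes or rows with no name, and the counted unnamed row at the Sirpa locus is among them. Of the 6, Cd200r4, Cd200r2 and Cd300lb are relatives of the members beside them. Tmem104, near Cd300lf, had 1.11 FPKM with LPS and 6.50 FPKM without. Dzip3 (0.552 FPKM with LPS and 3.87 FPKM without) and Cip2a (1.92 and 7.03 FPKM) lie near Cd47 and were lower, whereas Cd47 was higher. The neighbour that was higher is Il1b, near Sirpa, with 841.5 FPKM with LPS and 1.18 FPKM without.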
